A study of Mus musculus with 40 samples.

Results

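A set of 10 genes whose proteins build or steer the actin that moves and anchors the spindle of the mouse oocyte was followed across 5 follicle stages. They are the formins Fmn2 and Daam1, the Spire proteins Spire1 and Spire2, the Arp2/3 subunits Actr2 and Actr3, the GTPases Cdc42 and Rac1, and the vesicle proteins Rab11a and Myo5b. A probe set, the group of array probes that gives 1 value for a transcript, was taken where its platform symbol was exactly 1 of these names. That rule gave 27 of 45037 probe sets, 17 on the array type 430A and 10 on 430B, for 9 of the 10 genes, where the arrays name 18193 gene symbols in all. Spire1 had 5 probe sets, Cdc42 had 4, Fmn2, Daam1, Rac1, Myo5b and Actr3 had 3 each, Rab11a had 2 and Spire2 had 1. Actr2 had no match by that rule and was not analysed here. Each gene is represented by 1 probe set, the one of highest mean log2 signal over all 20 arrays of its type, with 430A taken before 430B. Its other probe sets are given beside it.

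An oocyte divides very unequally, keeping nearly all of its cytoplasm, and for this the spindle has to travel from the centre of the cell to the cortex. Fmn2, a formin that nucleates and elongates straight filaments, and the Spire proteins, which nucleate filaments through tandem actin-binding domains, together make the cytoplasmic actin mesh on which the spindle moves. Vesicles that carry Rab11a and are moved by the motor Myo5b bear these nucleators, while Rac1, Cdc42 and the branched filaments of the Arp2/3 complex act at the cortex above the spindle. The oocytes measured here were still in the follicle, before those divisions, so the values describe relative transcript levels before and during growth.

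The oocytes came from SJLB6 female mice and were pooled by stage, with 4 biological replicates per stage on each array type and 40 samples in all. Primordial follicles gave 400 oocytes per sample at 2 days of age, primary follicles 90 at 6 days, secondary follicles 60 at 12 days, small antral follicles 30 at 17 days and large antral follicles 20 at 24 days. No genotype or treatment beyond the strain is given in the labels, so stage, age and number of pooled oocytes changed together and cannot be told apart. For 3 of the 4 small antral samples on 430B the protocol text gives 12 days and 60 oocytes, the values of the secondary stage, while the titles say small antral. The labels do not tie samples to animals, so p-values measure the spread between these samples.

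Signals are array intensities brought to a common level on every array, so a change is relative to the rest of the RNA, and fewer cells of a type in a pool and less RNA per cell cannot be told apart. The columns of primordial replicates 2, 3 and 4 stand apart. Doubling each of them and taking away replicate 1 left 0 negative results among 22526 probe sets of 430A, and 0 among the 22411 of 430B. The same sum for the 48 ordered pairs of replicates within the later stages left from 1120 to 2857 negative results on 430A. On 430B it left from 1989 to 3790. A mean of a sample with replicate 1 would have that form. Comparisons with the primordial stage are therefore given as deposited and, where a value could be formed, with values unmixed on that assumption. The columns also bear on later steps, since all stages share 1 estimate of spread, which such means would lower. From small to large antral the median SE was 0.17 as deposited and 0.22 unmixed on 430A, and 0.34 and 0.4 on 430B. A later step whose call was lost unmixed thus kept nearly the same change with a larger SE.

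All 10 oocyte markers looked up, among them Zp3 and Gdf9, had mean signals of at least 100 at every stage, in the units of arrays scaled to a trimmed mean of 500. Of 14 granulosa cell markers with a probe set, 12 were tested and 6 rose from primary to large antral, Gja1 from 59.6 to 815 and Inha from 223 to 568. The summed signal of the 13 on 430A lay between 1448 and 1628 in the primary samples and between 3011 and 3168 in the large antral samples. Foxl2, measured on 430B and so outside this sum, had the highest signal of the tested markers. It averaged 2111 in primary and 1787 in large antral samples and was not called (-0.22 ± 0.16 (SE, adjusted p = 0.44)). The 430A probe sets of Amh, Amhr2 and Wt1 averaged under 100 at every stage, while the tested 430B probe set of Amhr2 averaged from 371 in primary to 563 in large antral samples and 399 in primordial samples. The part of granulosa cell RNA in the rises described here was not tested. Over the same span 3 of 10 oocyte markers rose and 6 fell, 2 of 4 surface epithelium markers rose and 1 fell, 2 of 3 endothelial markers rose, and the 4 stromal and 3 blood markers tested gave no call. At the first step, primordial to primary, 6 of 10 oocyte markers rose and 1 fell, and their summed signal on 430A went from between 52123 and 69767 to between 113068 and 119208. Of the 12 granulosa markers 1 rose, Nr5a2 by 1.77 ± 0.20 (SE, adjusted p = 6.1e-08), unmixed 1.24 (adjusted p = 0.0015), and 1 fell, Fst by -0.95 ± 0.28 (SE, adjusted p = 0.0049), unmixed -0.64 (adjusted p = 0.13), while their summed signal on 430A lay between 983 and 1321 in primordial samples. The stromal marker Dcn fell from 302 to 31.7, by -2.39 ± 0.33 (SE, adjusted p = 1.2e-06), unmixed -2.48 (adjusted p = 1.1e-05), and the 8 stromal markers summed to between 1049 and 1540.1 in primordial against between 683 and 893 in primary samples. Of the 4 surface epithelium markers tested 1 rose and 2 fell, Krt18 by -1.52 ± 0.29 (SE, adjusted p = 9.3e-05) and Upk1b by -1.48 ± 0.43 (SE, adjusted p = 0.011), unmixed -0.71 (adjusted p = 0.38), 1 of 3 endothelial markers rose, Tek by 1.20 ± 0.21 (SE, adjusted p = 3.1e-05), unmixed 0.83 (adjusted p = 0.016), and none of 3 blood markers was called. The part of these in the changes of the first step was not tested.

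All 27 probe sets reached the level needed for a test. A probe set was called where limma's adjusted p was under 0.05, over 15845 tested on 430A and 19115 on 430B. Between primordial and primary follicles 11 of the 27 rose and 6 fell as deposited, against 18.6% of all tested probe sets rising and 24.3% falling. By array type that was 11 of 17 called on 430A, against 56.5%, and 6 of 10 on 430B, against 31.7%. With unmixed values 9 of 26 rose, against 16.7%, and 6 fell, against 18.0%. From primary to secondary follicles 2 rose and 3 fell, against 6.01% rising and 5.17% falling, and with unmixed values 3 were called in all, against 4.71%. From secondary to small antral 5 rose and 1 fell, against 3.97% and 6.44%, and 3 were called unmixed, against 5.13%. From small to large antral follicles 1 rose and 1 fell, against 2.41% and 3.31%, and 1 was called unmixed, against 1.44%. Over the whole growth phase, primary to large antral, 8 rose and 1 fell, against 12.8% and 14.2%. That was 6 of 17 called on 430A, against 40.7%, and 3 of 10 on 430B, against 15.7%, so the share called on 430A lay near the background at both comparisons. Unmixed, 6 of 26 rose and 1 fell, against 8.82% and 10.2%. Between the outer stages, primordial and large antral, 13 rose and 8 fell, against 21.2% and 29.2%, and unmixed 12 rose and 7 fell of 26, against 19.3% and 22.9%. On 430A that was 8 and 6 of 17, where 4784 of 15845 rose and 5490 fell. On 430B it was 5 and 2 of 10, where 2640 of 19115 rose and 4702 fell. Percentages given without an array type pool both, while 17 of the 27 lie on 430A, where more was called in every comparison. The 3 nucleators of straight filaments that make the cytoplasmic mesh carried the largest rises from primary to large antral on their representative probe sets, 2.02 on the log2 scale for Spire1, 1.56 for Fmn2 and 1.41 for Spire2. Beside these, Rab11a rose by 0.25, and the representatives of Actr3 (0.05), Rac1 (0.12), Daam1 (-0.15), Myo5b (-0.20) and Cdc42 (-0.24) were not called. Representatives were chosen by mean signal over these same arrays, which can favour probe sets that are high at late stages. The other called probe sets of Fmn2 and Spire1 rose less over that span, and no more than the other probe set of Rab11a, as given below. Whether the genes differ from each other was not tested, and neighbouring steps share the samples of the stage between them. The median change of the 27 was 0.25 from primordial to primary and 0.05 from primary to large antral on the log2 scale, beside medians of -0.08 and 0.00 over all tested probe sets of 430A and -0.23 and -0.01 over those of 430B.

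The scaling bears on the first step. On 430B, 2296 probe sets rose and 3762 fell from primordial to primary as scaled here, 3372 rose and 1994 fell after scaling to equal medians, which moved the median change from -0.23 to 0.05, and 2884 rose and 2940 fell after quantile normalization. On 430A the counts were 4198 and 4747 as scaled here and 4959 and 3759 with equal medians. The corresponding counts from primordial to large antral on 430B were 2640 and 4702 as scaled here, 3920 and 2755 with equal medians, and 3511 and 3539 with quantile normalization. Member calls of the first step that turn on this are named below. Daam1 1431035_at, not called there as scaled here, rose with equal medians (0.56, adjusted p = 0.0056). From primordial to large antral, equal medians removed the falls of Spire1 1459548_at (-0.35, adjusted p = 0.11) and the Cdc42 representative (-0.16, adjusted p = 0.33). The falls of Actr3 1434968_a_at (-0.11, adjusted p = 0.53) and 1452051_at (-0.14, adjusted p = 0.29) were removed too. Quantile normalization also removed the former (-0.15, adjusted p = 0.28).

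Fmn2 rose in the later part of growth. Its representative probe set, 1450063_at, gave signals of 958, 1278, 1045 and 1080.5 in the 4 primary samples and 918, 1161, 1054.5 and 1022 in the 4 secondary samples. It then gave 1437, 2662, 2332 and 1520.1 in the small antral samples and 3132, 3571, 2889.9 and 3471 in the large antral samples. Primary and secondary samples overlapped, every small antral sample lay above all of these, and every large antral sample lay above every small antral one. The means were 1090.5 ± 135 (SD, n = 4) at the primary stage, 1988 ± 604 (SD, n = 4) in small antral and 3266 ± 313 (SD, n = 4) in large antral follicles. The rise from secondary to small antral was 0.87 ± 0.16 (SE, adjusted p = 3.6e-04) on the log2 scale, the next step added 0.75 ± 0.16 (SE, adjusted p = 0.0039), and the whole span from primary came to 1.56 ± 0.16 (SE, adjusted p = 2.3e-08), 2.94-fold. Between primary and secondary the change was -0.07 ± 0.16 (SE, adjusted p = 0.84).

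The first step of Fmn2 was read differently by its probe sets. In the 4 primordial samples 1450063_at gave 622, 913.5, 848 and 832, all under the lowest primary sample, a change of 0.43 ± 0.16 (SE, adjusted p = 0.024). With unmixed values it was 0.14 ± 0.20 (SE, adjusted p = 0.57), and the call was also lost without primary replicate 2 (0.35, adjusted p = 0.085), without primordial replicate 1 (0.32, adjusted p = 0.099) and with quantile normalization (0.35, adjusted p = 0.074). A second probe set, 1450064_at, gave 244, 321, 306 and 336.5 in primordial and 1537, 1647, 1487 and 1735 in primary samples, with a wide gap between the groups. That rise was 2.30 ± 0.12 (SE, adjusted p = 1.3e-13), 4.91-fold, and 2.06 ± 0.16 (SE, adjusted p = 9.4e-10) with unmixed values. It rose again from 1521 in secondary to 2156 in small antral follicles by 0.50 ± 0.12 (SE, adjusted p = 0.0055), a call lost with unmixed primordial values (adjusted p = 0.054), and from primary to large antral by 0.65 ± 0.12 (SE, adjusted p = 1.4e-04). The third probe set, 1431725_at, averaged between 98.9 and 131 over the 5 stages and was not called in any comparison. The probe sets of Fmn2 thus shared a late rise in 2 of 3 cases and differed in the size of the early one.

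**Figure D1:**
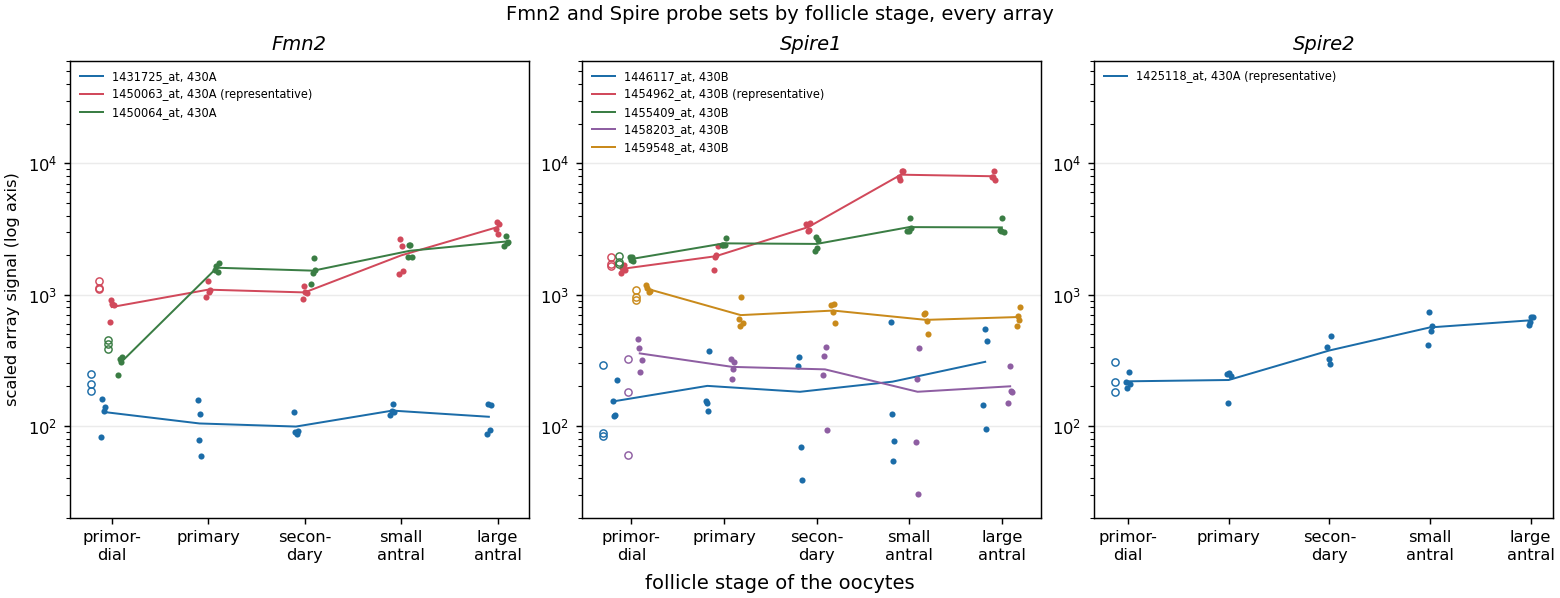
Scaled array signal (log axis) of every Fmn2, Spire1 and Spire2 probe set at the 5 follicle stages. Each filled point is 1 array, lines join the means of 4 arrays, and open circles are unmixed primordial values. The large antral samples of the representative Fmn2 probe set lie between 2890 and 3571, above all its other samples, and the Spire1 representative rises from a mean of 1959.5 in primary to 7964 in large antral samples.

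Spire1 rose from primary to small antral follicles on its representative probe set and then levelled. Its representative on 430B, 1454962_at, gave 1537, 1932, 2017 and 2353 in primary samples and 3449, 3043, 3084 and 3493 in secondary samples. In small antral samples it gave 7867, 7462, 8739 and 8676, and in large antral samples 7820.4, 7821, 8798.5 and 7414.5. No primary sample reached the lowest secondary one and no secondary sample reached the lowest small antral one, while the 2 antral stages overlapped. The rise was 0.74 ± 0.11 (SE, adjusted p = 7.5e-05) from primary to secondary and 1.32 ± 0.11 (SE, adjusted p = 1.5e-08) from secondary to small antral, followed by a change of -0.04 ± 0.11 (SE, adjusted p = 0.94). Between primary and large antral samples the mean went from 1959.5 ± 335 (SD, n = 4) to 7964 ± 589 (SD, n = 4), a log2 change of 2.02 ± 0.11 (SE, adjusted p = 8.7e-13), the largest of the 27 probe sets in that comparison. The primordial samples, at 1472, 1583, 1692 and 1548, overlapped the primary ones. The call for that first step, 0.30 ± 0.11 (SE, adjusted p = 0.039), was lost with unmixed values (0.19 ± 0.13 (SE, adjusted p = 0.31)), with quantile normalization (0.17, adjusted p = 0.27), without a mean-variance trend (adjusted p = 0.11), in a fit of those 2 stages alone (adjusted p = 0.089) and without any 1 of 6 single samples, primary replicates 2 to 4 and primordial replicates 1, 2 and 4 (0.20 to 0.30, adjusted p = 0.065 to 0.16).

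The other Spire1 probe sets moved less or not at all. On 1455409_at the means were 1867, 2456, 2432, 3265 and 3248 from the first stage to the last. It rose from primary to large antral by 0.39 ± 0.11 (SE, adjusted p = 0.011), with no overlap of samples, a call lost without large antral replicate 3 (0.31, adjusted p = 0.060) and without a mean-variance trend (adjusted p = 0.058). Its step from secondary to small antral, 0.42 ± 0.11 (SE, adjusted p = 0.017), was lost with unmixed values (adjusted p = 0.078), without secondary replicate 1 or 3 or small antral replicate 3 (0.35 to 0.39, adjusted p = 0.063 to 0.077), and without the 3 small antral samples of conflicting protocol (0.32, adjusted p = 0.43). That step was also lost with equal medians (0.41, adjusted p = 0.078), without a mean-variance trend (adjusted p = 0.094) and in a fit of those 2 stages alone (adjusted p = 0.068). Its rise from primordial to primary was 0.39 ± 0.11 (SE, adjusted p = 0.007), 0.41 ± 0.13 (SE, adjusted p = 0.02) unmixed, and 0.19 (adjusted p = 0.15) with quantile normalization. Another, 1459548_at, went the other way at the first step, from 1102.5 to 698, by -0.66 ± 0.17 (SE, adjusted p = 0.004) and by -0.57 (adjusted p = 0.035) unmixed, a call lost with equal medians (-0.36, adjusted p = 0.11). Both remaining probe sets, 1446117_at and 1458203_at, scattered widely between samples, for example with a mean of 182 ± 149.6 (SD, n = 4) in secondary samples of the first, and were not called.

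Spire2, the paralog of Spire1, rose from a low signal. Its only probe set, 1425118_at, gave 249.9, 150.4, 254 and 240.1 in primary and 399, 322, 296 and 485 in secondary samples. It gave 411.5, 733, 528 and 578 in small antral and 588, 619.6, 669 and 672 in large antral samples. Primary and secondary samples did not overlap, while secondary overlapped small antral and small antral overlapped large antral. The rise was 0.67 ± 0.17 (SE, adjusted p = 0.0073) from primary to secondary, and over the whole growth phase the mean went from 224 ± 49.2 (SD, n = 4) to 637 ± 40.9 (SD, n = 4), by 1.41 ± 0.17 (SE, adjusted p = 3.5e-07), 2.66-fold. The middle step, 0.54 ± 0.17 (SE, adjusted p = 0.031), was lost with unmixed values (adjusted p = 0.10), in a fit of those 2 stages alone (adjusted p = 0.085) and without secondary replicate 2 or 3 or small antral replicate 2 or 4 (0.41 to 0.52, adjusted p = 0.066 to 0.13). Primordial samples, at 216, 194, 256 and 209, overlapped the primary ones, and the first step was 0.01 ± 0.17 (SE, adjusted p = 0.96), and -0.02 (adjusted p = 0.94) unmixed.

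Fmn2 and Spire2 rose from primary to large antral, and the representative of Cdc42 was not called over that span. The bases before the annotated starts of these genes are shown side by side, 250 for Spire2 and Cdc42 and the 177 before the outermost start for Fmn2. Promoters of 7 of the 10 genes were found in RefSeq's GRCm38.p6 annotation, and the motifs looked for on both strands were the E-box CANNTG, read by Figla and other helix-loop-helix factors, the NOBOX element TAATTA or TAATTG, the GC box GGGCGG and the cAMP response element TGACGTCA. Capitals mark E-boxes, NOBOX elements and GC boxes, and each sequence runs 5′ to 3′ on the strand of its gene. The first lies at chr1:174501575-174501751 on the plus strand, the second at chr8:123332463-123332712 on the plus strand and the third at chr4:137357760-137358009 on the minus strand.
Fmn2: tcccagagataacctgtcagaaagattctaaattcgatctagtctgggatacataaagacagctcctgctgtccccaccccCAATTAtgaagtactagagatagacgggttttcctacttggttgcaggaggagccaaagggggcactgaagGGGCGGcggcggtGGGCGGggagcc
Spire2: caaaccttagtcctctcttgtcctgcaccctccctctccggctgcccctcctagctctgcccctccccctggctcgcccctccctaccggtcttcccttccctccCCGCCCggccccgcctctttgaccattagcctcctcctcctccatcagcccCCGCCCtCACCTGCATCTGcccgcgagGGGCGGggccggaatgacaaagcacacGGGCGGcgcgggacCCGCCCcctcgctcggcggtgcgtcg
Cdc42: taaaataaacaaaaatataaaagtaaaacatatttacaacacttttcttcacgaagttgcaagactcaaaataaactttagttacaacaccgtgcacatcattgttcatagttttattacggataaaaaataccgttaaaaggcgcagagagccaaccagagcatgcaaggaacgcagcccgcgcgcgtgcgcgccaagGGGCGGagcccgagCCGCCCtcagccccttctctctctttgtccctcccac
The Fmn2 stretch held 1 NOBOX element and 2 GC boxes, the Spire2 stretch 2 E-boxes and 5 GC boxes, and the Cdc42 stretch 2 GC boxes. Of all 32851 promoter windows of 250 bases, 66.2% held an E-box, 11.3% a NOBOX element, 32.7% a GC box and 1.55% a cAMP response element. A match of this kind is a description of the letters and was not tested for binding.

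The genes whose stage pattern was most like these were found by the largest difference at any of the 5 stage means, after each gene was centred on its own mean. Among the 3 nearest to Fmn2 of 14529 probe sets of 430A were Akr1cl within 0.17 on the log2 scale and Virma, a subunit of the RNA methylation complex, within 0.20. Nearest to Spire1 among 12680 probe sets of 430B were the kinase gene Dclk3 within 0.16, Gm6377 within 0.21 and the transporter gene Slc5a12 within 0.23. Nearest to Spire2 among 14531 probe sets of 430A were Uqcc1, an assembly factor of a respiratory complex, within 0.04, Cacul1 within 0.09 and the membrane adaptor gene Ank3 within 0.09. These are descriptions over 5 stage means of 4 samples each.

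Daam1, a formin of the planar polarity branch of Wnt signalling, changed early. Its representative, 1455244_at on 430B, gave 4274, 4635, 4549 and 4896 in primordial and 16615, 13568, 14144 and 12595 in primary samples, with no overlap. That was a rise of 1.62 ± 0.12 (SE, adjusted p = 7.6e-11), 3.07-fold, and 1.51 ± 0.14 (SE, adjusted p = 8.8e-09) with unmixed values. Later means were 10680.3 ± 1011 (SD, n = 4) in secondary, 9631 ± 1773 (SD, n = 4) in small antral and 12831 ± 1397 (SD, n = 4) in large antral follicles. The fall from primary to secondary, -0.41 ± 0.12 (SE, adjusted p = 0.041), was lost with unmixed values (adjusted p = 0.16), in the fit without the primordial stage (adjusted p = 0.052), with a replicate block (adjusted p = 0.058), without a mean-variance trend (adjusted p = 0.17), with equal medians (-0.37, adjusted p = 0.19) and without any 1 of 8 single samples, which were primary replicates 1 to 3, primordial replicate 3 and each secondary replicate (-0.45 to -0.33, adjusted p = 0.051 to 0.16). The second probe set, 1431035_at, fell at that step from 2236 to 1467, by -0.61 ± 0.12 (SE, adjusted p = 0.0031), and -0.61 ± 0.15 (SE, adjusted p = 0.029) with unmixed values, again without overlap. Neither was called from primary to large antral, with changes of -0.15 ± 0.12 (SE, adjusted p = 0.5) and -0.33 ± 0.12 (SE, adjusted p = 0.08). The change of 1431035_at became a fall in a fit of those 2 stages alone (adjusted p = 0.0499) and without small antral replicate 3 (adjusted p = 0.046). The last step of the representative, 0.42 ± 0.12 (SE, adjusted p = 0.065), became a rise without small antral replicate 3 (0.54, adjusted p = 0.012) and without the 3 small antral samples of conflicting protocol (0.67, adjusted p = 0.040). The third, 1458662_at, averaged 277 at the primordial stage and 60.9 at the large antral stage and fell only over that whole span, by -1.69 ± 0.49 (SE, adjusted p = 0.0084) and by -1.48 (adjusted p = 0.0496) unmixed.

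Of 12 other formins looked up, 10 were tested. From primary to large antral 1 rose and 2 fell, Fmnl2 from 3695 to 595 by -2.59 ± 0.16 (SE, adjusted p = 6.1e-12) and Diaph3 from 258.5 to 101 by -1.14 ± 0.23 (SE, adjusted p = 2.5e-04), and without primary replicate 3 a further formin rose, making 2. The list's median was -0.02. From primordial to primary 2 rose, Fhod3 by 1.49 ± 0.11 (SE, adjusted p = 3.0e-11), unmixed 1.25 (adjusted p = 9.4e-07), and Diaph1 by 1.20 ± 0.11 (SE, adjusted p = 2.3e-09), unmixed 1.1 (adjusted p = 3.4e-06), and 3 fell, with the same counts unmixed.

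**Figure D2:**
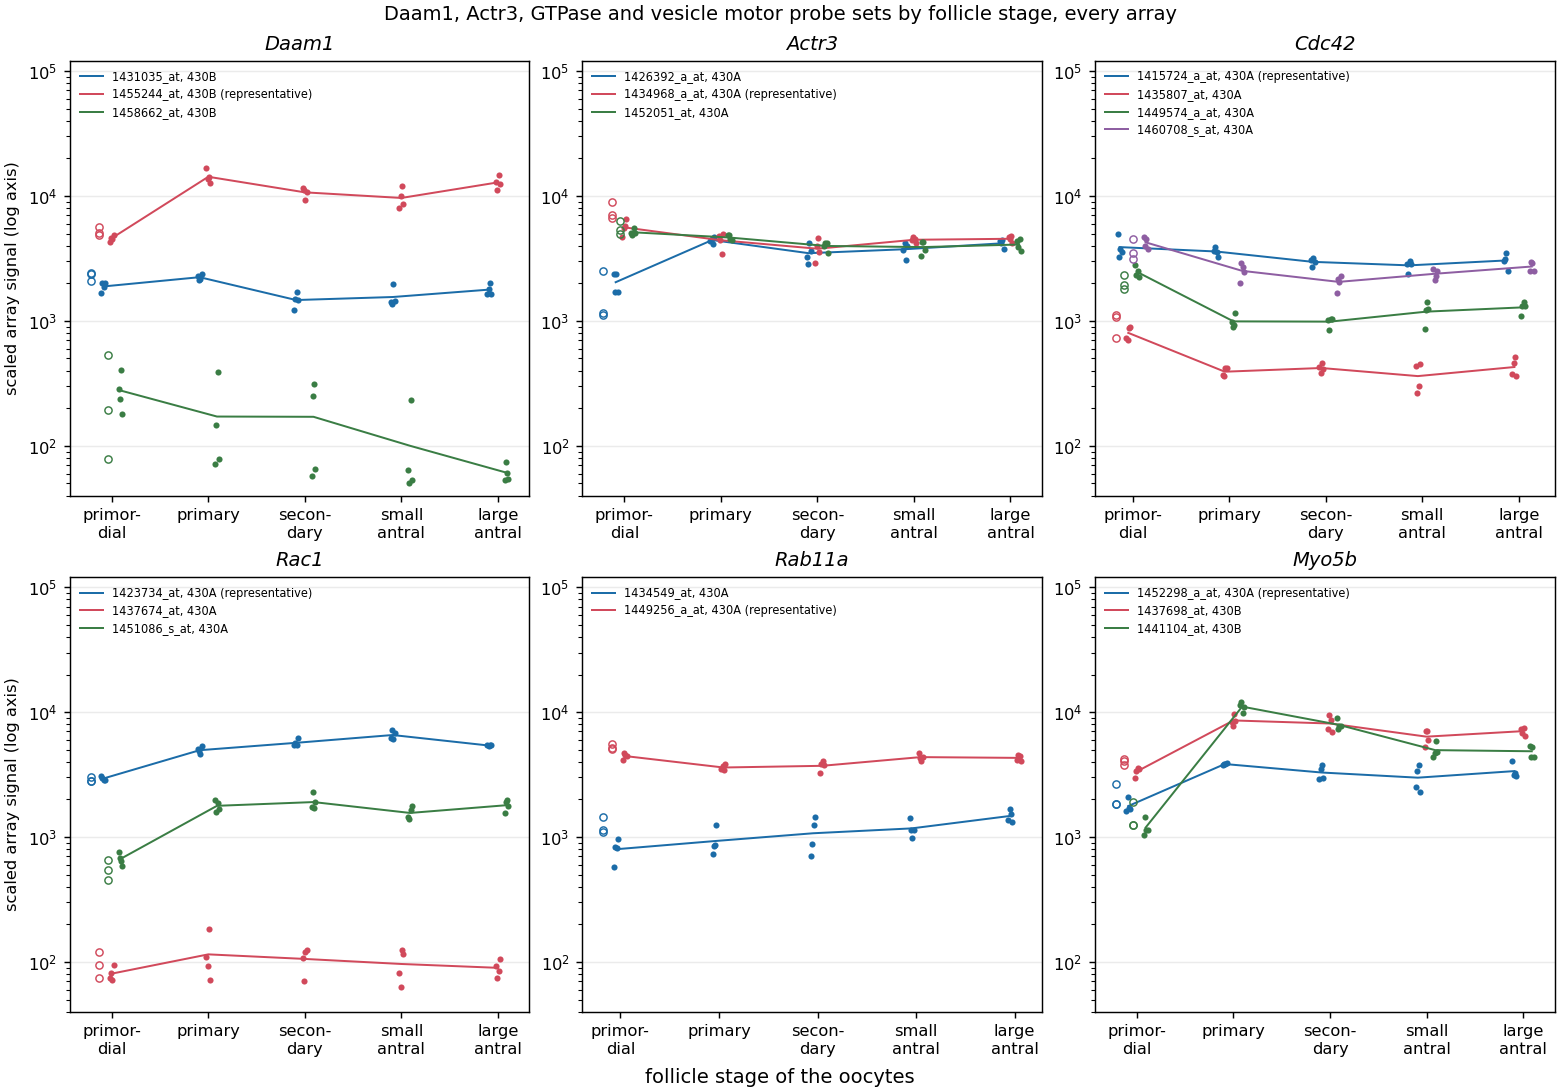
Scaled array signal (log axis) of every Daam1, Actr3, Cdc42, Rac1, Rab11a and Myo5b probe set at the 5 follicle stages. Points are arrays, lines join means of 4 arrays, and open circles are unmixed primordial values. Most of the movement lies between the primordial and primary stages, where the Myo5b probe set 1441104_at goes from a mean of 1192 to 11068.

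Actr3, an actin-related subunit at the core of the Arp2/3 complex, gave no call after the primary stage, and its probe sets disagreed at the first step. The representative 1434968_a_at gave 4649.8, 5496, 5729 and 6529 in primordial and 4816, 4448.5, 3440.4 and 4961 in primary samples, which overlapped. Its fall of -0.34 ± 0.13 (SE, adjusted p = 0.024) was larger unmixed, -0.58 ± 0.16 (SE, adjusted p = 0.0053), and was lost with equal medians (-0.19, adjusted p = 0.27), with quantile normalization (-0.18, adjusted p = 0.21) and without primary replicate 3, primordial replicate 3 or primordial replicate 4 (-0.33 to -0.23, adjusted p = 0.053 to 0.13). In contrast 1426392_a_at gave 2358, 1699, 2389 and 1708.5 in primordial and 4338.5, 4549, 4158 and 4696 in primary samples, apart from each other, a rise of 1.13 ± 0.13 (SE, adjusted p = 5.2e-08) and of 1.41 ± 0.21 (SE, adjusted p = 7.5e-06) unmixed. The third, 1452051_at, changed by -0.14 ± 0.10 (SE, adjusted p = 0.24), and by -0.19 (adjusted p = 0.18) unmixed. Over the growth phase the changes were 0.05 ± 0.13 (SE, adjusted p = 0.79) for the representative, -0.09 ± 0.13 (SE, adjusted p = 0.63) for 1426392_a_at and -0.19 ± 0.10 (SE, adjusted p = 0.13) for 1452051_at, and none was called. The change of 1426392_a_at from primary to secondary, -0.36 ± 0.13 (SE, adjusted p = 0.051), passed in the fit without the primordial stage (adjusted p = 0.025). That fall also passed with quantile normalization (-0.39, adjusted p = 0.028), in a fit of those 2 stages alone (adjusted p = 0.033) and with a pseudocount of 64 (adjusted p = 0.0498). With single samples left out it passed in 6 of 20 fits. In the large antral samples the representative gave 4663, 4510.5, 4817 and 4164, within the range of the primary ones.

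Of 8 other Arp2/3 subunits 5 had a probe set, and from primary to large antral 2 of these fell, Arpc4 from 998 to 353 by -1.42 ± 0.14 (SE, adjusted p = 1.2e-08) and Arpc5 from 666 to 429 by -0.55 ± 0.14 (SE, adjusted p = 0.0035). Their median change was -0.30. From primordial to primary Arpc4 rose by 1.33 ± 0.14 (SE, adjusted p = 1.6e-08), unmixed 1.98 (adjusted p = 2.3e-06), while 4 fell, 2 with unmixed values, led by Arpc5 at -2.13 ± 0.14 (SE, adjusted p = 9.1e-12), unmixed -2.22 (adjusted p = 3.9e-10). With quantile normalization 1 subunit rose from primary to large antral.

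Of 14 tested Arp2/3 activators, which include the WAVE complex and the N-WASP family, 2 rose and 6 fell from primary to large antral, with a median of -0.02. Abi2, a WAVE complex subunit, went from 2797 to 242, by -3.49 ± 0.25 (SE, adjusted p = 1.0e-10), and Cttn, the branch-stabilising protein cortactin, from 1282.5 to 466, by -1.41 ± 0.12 (SE, adjusted p = 1.9e-09). At the first step 1 rose and 6 fell, and 1 and 5 unmixed. After scaling to equal medians 3 rose and 2 fell. Abi1, a WAVE complex subunit, rose by 1.09 ± 0.12 (SE, adjusted p = 3.0e-08), unmixed 0.92 (adjusted p = 1.9e-05), and Brk1, another subunit, fell, at -0.85 ± 0.10 (SE, adjusted p = 6.1e-08), unmixed -0.99 (adjusted p = 5.1e-07). A further activator rose, making 2, without any 1 of 7 single samples, which were primordial replicates 1 and 2, secondary replicates 1, 2 and 4 and small antral replicates 1 and 3, and in a fit of those 2 stages alone. Of 5 tested inhibitors and debranching factors 3 fell over growth, Gmfb by -0.48 ± 0.10 (SE, adjusted p = 6.3e-04) and Coro1c by -0.90 ± 0.20 (SE, adjusted p = 7.2e-04), but 1 with unmixed primordial values, and Gmfb alone fell at the first step, by -0.91 ± 0.10 (SE, adjusted p = 7.0e-08), unmixed -0.95 (adjusted p = 8.7e-07). With equal medians, with quantile normalization and unmixed, 1 of the 5 also rose there.

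Cdc42, the GTPase that directs cortical polarity, lost signal between the first stages on 3 of its 4 probe sets. The clearest was 1449574_a_at, which gave 2804, 2311, 2525 and 2229.8 in primordial and 977, 897, 933 and 1154 in primary samples, far apart, a fall of -1.29 ± 0.13 (SE, adjusted p = 7.2e-09) and of -1.10 ± 0.16 (SE, adjusted p = 5.8e-06) unmixed. On 1435807_at the fall was -0.97 ± 0.15 (SE, adjusted p = 4.8e-06), from 801 to 391.7, and on 1460708_s_at -0.76 ± 0.12 (SE, adjusted p = 6.8e-06), from 4250.1 to 2513. Unmixed, these came to -1.11 (adjusted p = 2.0e-05) and -0.62 (adjusted p = 0.0016). The suffix s marks probes that match more than 1 transcript. The representative 1415724_a_at gave 4989.8, 3257, 3776.5 and 3549 in primordial samples and 3629, 3932, 3543 and 3257 in primary samples, overlapping groups, with a change of -0.10 ± 0.12 (SE, adjusted p = 0.5). It is 1 of 100 probe sets of 430A with no unmixed value.

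Between primordial and large antral stages the representative was called as a fall. That call was lost with equal medians (-0.16, adjusted p = 0.33), without large antral replicate 4 (-0.25, adjusted p = 0.076) and without primordial replicate 1 (-0.22, adjusted p = 0.076). Later changes of Cdc42 were small. From primary to large antral the representative changed by -0.24 ± 0.12 (SE, adjusted p = 0.11), a change that became a call without primordial replicate 1 (-0.24, adjusted p = 0.0495) and with quantile normalization (-0.29, adjusted p = 0.049). On 1449574_a_at the large antral samples, at 1103, 1305, 1405 and 1317, overlapped the primary ones, and the rise of 0.36 ± 0.13 (SE, adjusted p = 0.027) was lost unmixed (adjusted p = 0.096) and without any 1 of 6 single samples, primary replicates 1 to 3 and large antral replicates 2 to 4 (0.32 to 0.36, adjusted p = 0.051 to 0.082).

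Rac1, the GTPase that acts on the WAVE complex, rose at the first step. Its representative 1423734_at gave 3071, 2955, 2875 and 2847 in primordial and 5042, 4863, 4585 and 5334 in primary samples, clearly apart, a rise of 0.75 ± 0.08 (SE, adjusted p = 1.6e-08) and of 0.78 ± 0.09 (SE, adjusted p = 5.5e-07) unmixed. The same step on 1451086_s_at went from 668 to 1778, by 1.37 ± 0.11 (SE, adjusted p = 3.4e-10), and by 1.55 ± 0.15 (SE, adjusted p = 2.1e-08) unmixed. The representative then averaged 5680.1 ± 326 (SD, n = 4) in secondary, 6557 ± 489.6 (SD, n = 4) in small antral and 5398 ± 45.9 (SD, n = 4) in large antral follicles. The last step, -0.28 ± 0.08 (SE, adjusted p = 0.026), was the only fall among the 27 from small to large antral and was lost with equal medians (-0.28, adjusted p = 0.088), with quantile normalization (-0.19, adjusted p = 0.11), with unmixed values (adjusted p = 0.13), without a mean-variance trend (adjusted p = 0.055) and without large antral replicates 1, 2 or 3 or small antral replicates 2 or 4 (-0.28 to -0.23, adjusted p = 0.055 to 0.081). From primary to large antral the change was 0.12 ± 0.08 (SE, adjusted p = 0.22). The third probe set, 1437674_at, averaged between 80.7 and 115 and gave no call, though its first step passed with quantile normalization (0.51, adjusted p = 0.040).

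Within each array, the log2 ratio of Rac1 over Cdc42 on the representative probe sets was 0.37 higher in large antral than in primary samples, with an exact two-sided permutation p = 0.057 for 4 against 4 samples. With the mean of all tested probe sets of each gene the difference was -0.12 (exact permutation p = 0.40). The ratio of Spire2 over Spire1 could not be formed within an array, since the first lies on 430A and the second on 430B.

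**Figure D3:**
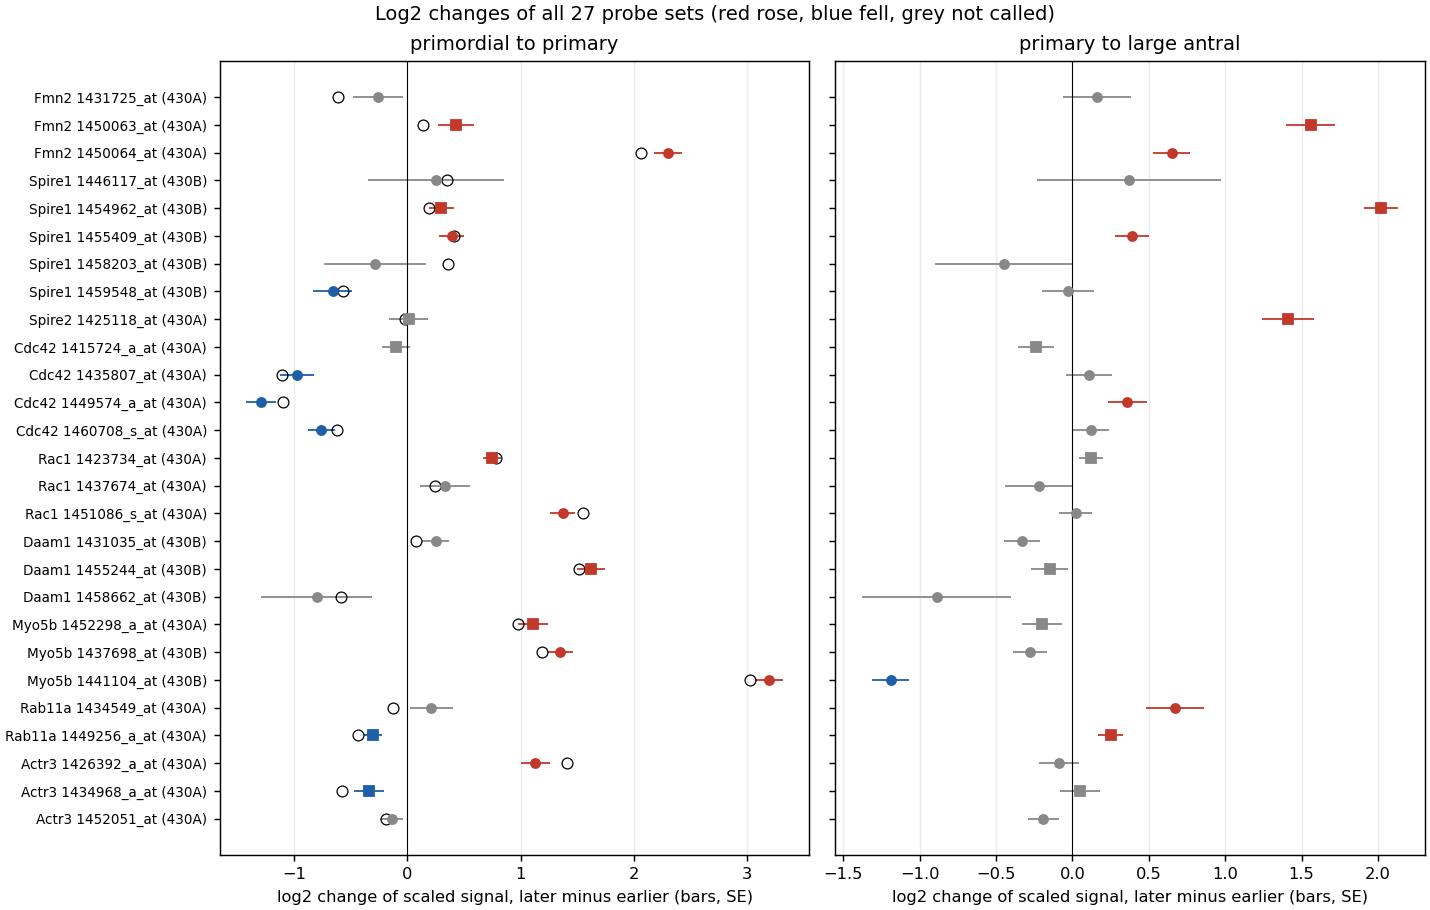
Log2 change of all 27 probe sets from primordial to primary (left) and from primary to large antral (right), later minus earlier, with SE bars from the limma fit. Red rose, blue fell, grey was not called, squares are representative probe sets, and open circles are the first step with unmixed primordial values. On the right the Fmn2, Spire1 and Spire2 representatives stand at 1.56, 2.02 and 1.41, and Myo5b 1441104_at at -1.19.

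Among 20 tested GTPases of the cytoskeleton, effectors and polarity proteins other than Cdc42 and Rac1, 5 rose and 6 fell from primary to large antral, 4 and 4 with unmixed primordial values, with a median of -0.02. Iqgap1, a scaffold that binds both GTPases, went from 3355 to 601.5, by -2.42 ± 0.12 (SE, adjusted p = 1.1e-13), and the kinase Pak2, an effector of both, from 388 to 107, by -1.61 ± 0.17 (SE, adjusted p = 3.5e-08). At the first step 9 rose and 8 fell, 8 and 6 unmixed. The 8 falls became 4 with equal medians, 5 with quantile normalization, 5 with no filter on low signals, and 5 without primary replicate 3 or without primordial replicate 3. Cdc42bpb, a kinase bound by Cdc42, rose from 163 to 2173, by 3.51 ± 0.24 (SE, adjusted p = 1.9e-11), unmixed 3.96 (adjusted p = 3.3e-10), and Tiam1, an exchange factor for Rac1, from 1492 to 7411, by 2.34 ± 0.17 (SE, adjusted p = 2.4e-11), unmixed 1.88 (adjusted p = 2.1e-06).

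Myo5b, the motor that moves Rab11a vesicles along actin, had the largest rise of all members. On 1441104_at the 4 primordial samples gave 1035, 1459.5, 1139.7 and 1133 and the 4 primary samples 11387, 12090.2, 9859.7 and 10936, a rise of 3.19 ± 0.12 (SE, adjusted p = 1.2e-16), 9.12-fold, and of 3.02 ± 0.15 (SE, adjusted p = 1.7e-13) unmixed. That signal then fell again, to 8892, 7331, 7753 and 7684 in secondary and 5402, 4367, 5296.5 and 4377 in large antral samples. Every primary sample lay above every secondary sample, and every secondary sample above every large antral one. The falls were -0.48 ± 0.12 (SE, adjusted p = 0.011) from primary to secondary, lost with unmixed values (adjusted p = 0.11), without a mean-variance trend (adjusted p = 0.084) and with equal medians (-0.44, adjusted p = 0.085), -0.68 ± 0.12 (SE, adjusted p = 3.9e-04) from secondary to small antral, and -1.19 ± 0.12 (SE, adjusted p = 2.6e-08) from primary to large antral. The other probe sets shared the rise without the clear fall. The representative 1452298_a_at gave 1628, 2079, 1696 and 1682 in primordial and 3761, 3846, 3810.0 and 3951 in primary samples, with no overlap, a rise of 1.11 ± 0.13 (SE, adjusted p = 1.5e-07) and 0.98 ± 0.16 (SE, adjusted p = 3.1e-05) unmixed. On 1437698_at the rise was 1.35 ± 0.11 (SE, adjusted p = 9.8e-10), and 1.19 ± 0.14 (SE, adjusted p = 3.7e-07) unmixed. From primary to large antral these changed by -0.20 ± 0.13 (SE, adjusted p = 0.27) and -0.28 ± 0.11 (SE, adjusted p = 0.1), and the second became a fall with quantile normalization (-0.36, adjusted p = 0.032) and in a fit of those 2 stages alone (adjusted p = 0.047).

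Rab11a, the GTPase of recycling vesicles, moved little. Its representative 1449256_a_at gave 4120.4, 4696, 4509 and 4485 in primordial, 3475, 3673, 3428 and 3840.2 in primary and 4160.5, 4517, 4439 and 4092 in large antral samples. The primary samples lay below both other groups. The fall at the first step was -0.30 ± 0.08 (SE, adjusted p = 0.0039), -0.44 ± 0.11 (SE, adjusted p = 0.0017) unmixed, and was lost with equal medians (-0.15, adjusted p = 0.27). The rise from primary to large antral, 0.25 ± 0.08 (SE, adjusted p = 0.019), was lost unmixed (adjusted p = 0.081) and without large antral replicate 2 or 3 or primary replicate 3 (0.23 to 0.24, adjusted p = 0.052 to 0.060). The other probe set, 1434549_at, rose over that span from 929 ± 225 (SD, n = 4) to 1476 ± 171 (SD, n = 4), by 0.67 ± 0.19 (SE, adjusted p = 0.006), 0.67 ± 0.24 (SE, adjusted p = 0.037) unmixed, with no overlap of samples.

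Of 12 other Rab11 vesicle and myosin genes tested, 2 rose and 6 fell from primary to large antral, with a median of -0.68. The non-muscle myosin Myh10 went from 6301 to 1911, by -1.70 ± 0.09 (SE, adjusted p = 8.0e-13), and Rab11b, the paralog of Rab11a, from 1574 to 482, by -1.63 ± 0.14 (SE, adjusted p = 8.7e-10). At the first step 3 rose and 6 fell, 4 and 5 unmixed, led by the myosin light chain gene Myl12a at -1.19 ± 0.09 (SE, adjusted p = 4.4e-11), unmixed -1.33 (adjusted p = 2.9e-09), and Myh10 at 1.23 ± 0.09 (SE, adjusted p = 1.0e-10), unmixed 1.35 (adjusted p = 2.2e-08). Of 17 tested genes for actin itself and for proteins that bind monomers, cap or sever filaments, 4 rose and 5 fell from primary to large antral, with a median of -0.05. The cytoplasmic actin genes went down, Actg1 from 10587 to 3211 by -1.71 ± 0.09 (SE, adjusted p = 5.9e-13) and Actb from 13514 to 2871 by -2.23 ± 0.15 (SE, adjusted p = 1.2e-11). At the first step 7 rose and 7 fell, 6 and 5 unmixed, with the profilin genes moving apart, Pfn1 by 1.85 ± 0.16 (SE, adjusted p = 4.7e-10), unmixed 2.22 (adjusted p = 2.0e-07), and Pfn2 by -1.15 ± 0.11 (SE, adjusted p = 5.7e-09), unmixed -1.45 (adjusted p = 1.7e-07).

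**Figure D4:**
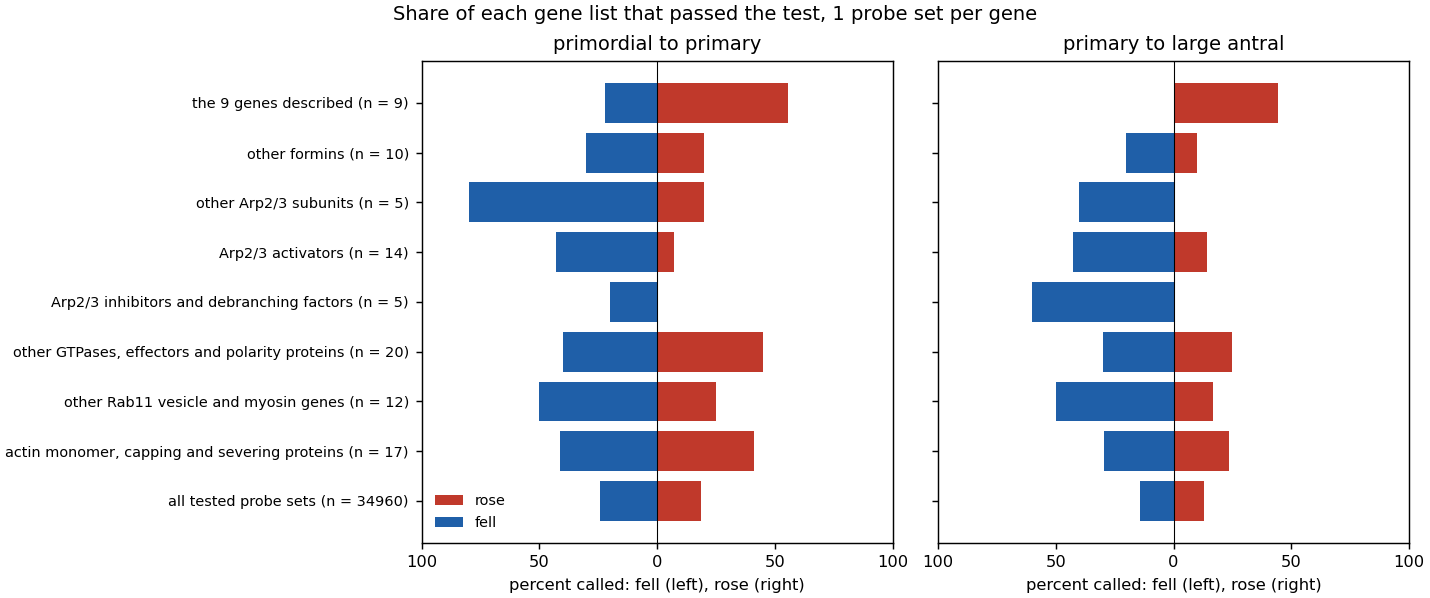
Percent of each gene list that rose (right, red) or fell (left, blue) from primordial to primary and from primary to large antral, with 1 probe set per gene. The bottom bar is all 34960 tested probe sets, of which 12.8% rose and 14.2% fell from primary to large antral. It pools both array types, while the lists took 430A before 430B and lie mostly on 430A. Over that span 40.7% of tested probe sets were called on 430A and 15.7% on 430B. From primordial to primary the shares were 56.5% and 31.7%.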

How the data were processed

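Total RNA of pooled mouse oocytes was hybridised to Affymetrix 430A and 430B arrays. What the authors deposited is a MAS5 signal, a linear intensity for every probe set, per the submitters' processing notes, and a version or detection call is not given in the sources used here. Signals were multiplied here so that each array's mean, trimmed by 2% at the ends, became 500, and log2(signal + 32) was used, which understates fold changes of low signals. Probe sets with at least 4 of 20 arrays at 100 or more were tested, 15845 on 430A and 19115 on 430B, using limma 3.58.1 under R 4.3.3, its lmFit and a two-sided eBayes test with a mean-variance trend. All 20 arrays of a type entered 1 fit with 15 residual degrees of freedom, and p-values were adjusted by Benjamini-Hochberg within an array type. That number takes the deposited primordial columns as independent, which means with replicate 1 would not be. A change was called at an adjusted p under 0.05.

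Gene names are those of GEO's platform annotation, and only probe sets with 1 symbol were named. The members and gene lists were chosen with earlier results of these data known, so no p-value was adjusted over a list alone. All member probe sets are given. For other lists at most the 2 genes of smallest adjusted p are named per comparison, 1 probe set per gene. Likeness was the largest difference between centred stage means, and 1 of the genes it found is not reported here. Marker lists covered oocytes, granulosa cells, theca and stroma, surface epithelium, blood and endothelium.

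Groups and replicate numbers came from sample titles. The fit was tested on simulated secondary and small antral values, where 42 and 40 of 50 changes of 1 up and down on the log2 scale were called on 430A and 15 and 16 of 50 on 430B, and 13 and 11 of 50 changes of 0.5 on 430A and 2 and 2 on 430B. No change was simulated for 15645 of the 15845 probe sets on 430A and 18915 of the 19115 on 430B. A step with more changes has a looser adjusted threshold, so these shares need not carry over to the data. Precision is limited by the number of arrays. Same-numbered samples did not deviate together, with correlations from -0.11 to 0.13 (430A) and from -0.04 to 0.06 (430B), and no block entered the fit. Alternatives were other scalings, pseudocounts, filters and spreads, unmixed primordial values (2 times replicates 2 to 4 minus replicate 1), fits without a stage and each sample left out in turn.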

Additional observations from a re-analysis of the deposited data

Results flagged for a closer look

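Of 45 groups of 4 samples, 1 for each representative probe set and stage, 2 held a sample that stood apart by Dixon's criterion, and chance gives about 1 in 20. For Spire2 on 1425118_at, primary replicate 2 gave 150.4 while the others lay between 240.1 and 254.2, so that the gap was 0.864 of the group's range. For Myo5b on 1452298_a_at, primordial replicate 2 gave 2079 while the others lay between 1628 and 1696, so that the gap was 0.849 of the range. No test was made of a cause.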

How the results depend on the processing

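Among changes of the 9 representative probe sets, 54 results gave 1650 values under the alternatives, of which 748 kept a call and its direction, 819 stayed without a call, 20 of these with the other sign or at 0.00, 73 lost a call, 10 gained one and 0 turned a called direction. The count of called member probe sets from primary to secondary, 5, was 3 with equal medians, 3 without a mean-variance trend and 3 with unmixed primordial values. From secondary to small antral the 6 calls became 3 unmixed. From small to large antral the 2 calls became 1 with equal medians, without a trend, with quantile normalization and unmixed, and lay between 1 and 3 when each sample was left out in turn. The ratio of Rac1 over Cdc42 turned from 0.37 to -0.12 with the mean of all tested probe sets, and lay between 0.28 and 0.45 with 1 sample left out. With the replicate number as a block the 6 counts were 17, 4, 7, 2, 9 and 20 in the order of the steps, then primary and primordial to large antral, against 17, 5, 6, 2, 9 and 21; each sample was nearest to its own number for 5 of 20 arrays on 430A and 7 of 20 on 430B, and the numbers were not taken as pairs. Signals near 100 are at the limit of what 4 arrays per stage detect. In the simulation on 430B, 15 and 16 of 50 changes of 1 up and down were called, and 2 and 2 of 50 changes of 0.5. Most changes of these sizes were thus missed there, and the lack of a call on 430B can hide them.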
